A study of Mus musculus with 12 samples.

Results

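The genes described here are 5 members of the mouse Ms4a family that are associated with T cells and myeloid cells: Ms4a4b, Ms4a4c, Ms4a6b, Ms4a6c and Ms4a6d. They were chosen by name, and every probe set that the array annotation gives to 1 of these genes alone was taken, which is 11 of 34945 such probe sets and 5 of 18193 genes. The choice was made with the measured difference between KO and WT leukaemias known, so the members' values in every comparison that includes leukaemia arrays are given as a description, with no test. No cut on the values entered the rule.

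Expression was measured on 12 mouse Affymetrix 430 2.0 arrays, 3 for each of 4 groups. KO T-ALL denotes MBD2-/- leukaemias driven by Notch1, sorted as GFP+ bone marrow cells from transplanted recipient mice once GFP+ cells had passed 50% of the white cells in blood. WT T-ALL denotes leukaemias made in the same way from MBD2 wild-type cells. KO DP and WT DP denote CD4+CD8+ double-positive thymocytes sorted from steady-state mice of the same genotypes. All leukaemias share the Notch1 driver and GFP, which the thymocytes lack, so comparisons of leukaemia with thymocytes differ in driver, tissue and transplantation as well as in transformation. Age, sex, strain and the design of the deletion were not given in the sources used here. In bulk samples of this kind, fewer cells of a type and less RNA per cell cannot be told apart.

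The MS4A proteins are small tetraspan proteins of the plasma membrane, encoded side by side in 1 cluster, and are known for tuning signalling from the receptors they sit beside. The founding members are Ms4a1, which encodes the B cell antigen CD20, and Ms4a2, which encodes the β chain of the high-affinity IgE receptor of mast cells. In mouse T cells Ms4a4b (also called Chandra) is known as a partner of the costimulatory receptor GITR and as a restraint on T-cell proliferation, and Ms4a6b is known as a further surface protein gene of T cells. Ms4a4c, Ms4a6c and Ms4a6d are known mainly from myeloid cells, and several of these genes respond to interferon. MBD2 is a protein that binds methylated CpG sites in DNA and recruits repressors of transcription.

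RefSeq promoter windows on build GRCm38.p6 were matched for 4 of the 5 members. The 250 bases before each start are shown because they contain few or no CpG sites, the sequence that MBD2 reads when methylated, and because related members share stretches of them. All lie on the plus strand of chromosome 19, in the order Ms4a4c, Ms4a4b, Ms4a6c, Ms4a6b, at chr19:11407411-11407660, chr19:11443308-11443557, chr19:11469118-11469367 and chr19:11518309-11518558. Capitals mark matches, on either strand, to any of the sequences searched: CG, GAAANNGAA (bound by IRF factors), TGTGGT (RUNX), TGGGAA (RBPJ, the DNA-binding partner of Notch) and CACGTG (MYC). No 2 marked matches overlap.
Ms4a4b: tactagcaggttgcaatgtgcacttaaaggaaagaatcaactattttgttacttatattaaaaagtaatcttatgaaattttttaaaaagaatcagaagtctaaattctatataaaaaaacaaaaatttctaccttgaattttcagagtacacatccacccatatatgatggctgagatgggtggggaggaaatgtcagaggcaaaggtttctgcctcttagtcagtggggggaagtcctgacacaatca
Ms4a4c: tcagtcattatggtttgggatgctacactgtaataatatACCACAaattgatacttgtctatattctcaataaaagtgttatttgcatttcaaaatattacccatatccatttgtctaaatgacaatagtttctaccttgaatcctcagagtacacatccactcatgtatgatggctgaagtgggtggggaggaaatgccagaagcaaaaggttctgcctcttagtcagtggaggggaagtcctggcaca
Ms4a6b: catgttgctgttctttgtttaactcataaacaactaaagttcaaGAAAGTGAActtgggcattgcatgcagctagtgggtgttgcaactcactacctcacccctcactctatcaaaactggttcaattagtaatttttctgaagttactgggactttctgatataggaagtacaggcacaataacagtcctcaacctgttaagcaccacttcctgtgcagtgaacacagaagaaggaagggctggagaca
Ms4a6c: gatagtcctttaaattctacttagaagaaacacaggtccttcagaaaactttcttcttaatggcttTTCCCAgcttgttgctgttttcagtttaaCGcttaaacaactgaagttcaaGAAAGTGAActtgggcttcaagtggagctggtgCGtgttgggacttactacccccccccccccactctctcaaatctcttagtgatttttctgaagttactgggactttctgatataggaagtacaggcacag

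The windows of Ms4a4b, Ms4a4c and Ms4a6b held 0 CG and that of Ms4a6c held 2. Among 32851 promoter windows of this length 92.1% held at least 1 CG, with a median of 6 per window. The GAAANNGAA match lay at bases -206 to -198 from the start in Ms4a6b and at -133 to -125 in Ms4a6c, and 7.13% of all windows hold this sequence. Ms4a4c held 1 TGTGGT (14% of all windows) at -211 to -206, and Ms4a6c held 1 TGGGAA (21.6% of all windows) at -184 to -179. None of the 4 windows held CACGTG, which 6.02% of all windows hold, and Ms4a4b had none of the 5 sequences. The windows of Ms4a4b and Ms4a4c were identical at 70.8% of aligned positions. Those of Ms4a6b and Ms4a6c shared an unbroken run of 48 bases, which starts at -118 in Ms4a6b and at -49 in Ms4a6c. A match describes letters in this window and not a site in use.

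Mbd2 itself was checked first. It was lower in KO than in WT leukaemias, with 54.4 ± 12.4 and 820 ± 119 intensity units (mean ± SD, n = 3 each), a log2 difference of -3.58 (SE 0.17, limma adjusted p = 5.79e-05). In thymocytes Mbd2 was at 72.1 ± 10.7 in KO and 1136 ± 206 in WT (log2 difference -3.70, limma adjusted p = 0.00268). This second call was lost with a block for the poly-A controls described next (log2 difference -3.59, adjusted p = 0.0516) and without KO DP replicate 1 (adjusted p = 0.0654) or replicate 3 (adjusted p = 0.0572). It was also lost with the replicate number as a block (limma adjusted p = 0.257). By this probe set, the brighter of Mbd2, the 3 KO and 3 WT thymocyte arrays were far apart, at 64.4 to 84.3 and 993 to 1372. The other Mbd2 probe set was under the background level given below on all KO arrays. It gave a log2 difference of -3.47 between leukaemia genotypes (limma adjusted p = 0.0118). In thymocytes it gave -3.08 and did not pass (limma adjusted p = 0.360), with WT values from 110 to 454.

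The arrays had log2 medians within 0.0752 of each other. Poly-A control transcripts, which are added before labelling, gave signal on 5 arrays (KO T-ALL 1, WT T-ALL 1 and 2, WT DP 1 and 2) and none on the other 7, so no KO DP array has them. The Gapdh 3' to 5' signal ratio, a sign of RNA or labelling quality, ran from 0.964 to 3.68. WT DP 1 stood apart in 3 lists. Its summed monocyte and macrophage markers reached 1413, against 641 and 611 on the other WT DP arrays, its summed granulocyte markers 476, against 210 and 219, and its summed interferon-stimulated genes 5550, against 2815 and 2201. Among T-cell and thymocyte markers, Rag1 and Rag2 were at background in KO leukaemias and Rag2 in WT leukaemias, and all 11 measured markers were above background in both thymocyte groups.

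Among controls with no target in these samples the brightest value was 35.3, and levels below it cannot be told from background. Of the 11 member probe sets, 5 exceeded this level on at least 1 array and 8 passed the filter on low values. Ms4a4b and Ms4a6b each had 1 probe set above background on all 12 arrays. The brighter Ms4a4c and Ms4a6c probe sets were above it on 10 arrays each, with no value over 70.0 and 51.2. Ms4a6d stayed at background, with 24.7 as the highest value of its 3 probe sets.

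**Figure D1:**
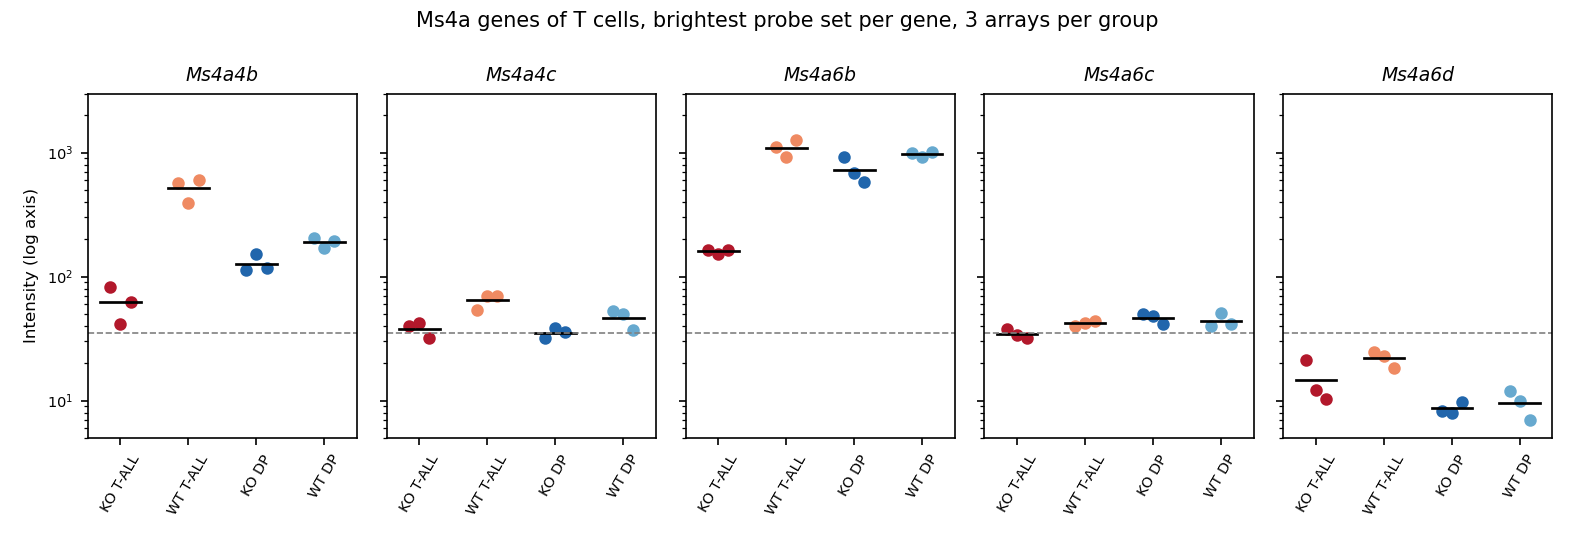
Intensity (log axis) of the brightest probe set of each member on every array, with KO T-ALL, WT T-ALL, KO DP and WT DP from left to right in each panel; points are arrays, black lines are means of 3, and the dashed line marks the brightest non-target control (35.3). KO leukaemias are the lowest group for Ms4a4b and Ms4a6b, whereas Ms4a6d lies under the dashed line on all arrays.

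Ms4a4b, the GITR partner, had intensities of 82.6, 41.4 and 62.6 on the KO T-ALL arrays, against 566, 392 and 598 on the WT T-ALL arrays. In thymocytes it gave 113, 151 and 118 in KO and 204, 170 and 193 in WT. The ordered groups were WT T-ALL, WT DP, KO DP and KO T-ALL, and no group overlapped its neighbour in that order. The KO leukaemia mean was 8.34 times lower than the WT leukaemia mean, a log2 difference of -2.79 (SE 0.24, n = 3 each). WT leukaemias were above WT thymocytes by a log2 difference of 1.36 (SE 0.18), whereas KO leukaemias were below KO thymocytes by one of -0.90 (SE 0.21). Among arrays with poly-A signal the KO value of 82.6 stood against 566 and 392 in WT, and among those without it 41.4 and 62.6 in KO stood against 598 in WT. The second Ms4a4b probe set lay between 11.0 and 25.2, under the background level on every array, so the gene's values rest on 1 probe set.

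Ms4a6b, the other T-cell gene and the brightest member, had 164, 152 and 163 on the KO T-ALL arrays, against 1105, 917 and 1266 on the WT T-ALL arrays. Its thymocyte values were 915, 684 and 578 in KO and 988, 928 and 1016 in WT. WT leukaemias and WT thymocytes overlapped, KO thymocytes lay just under WT thymocytes, and KO leukaemias stood alone at the low end. The KO leukaemia mean was 6.86 times lower than the WT leukaemia mean (log2 difference -2.65, SE 0.14) and 4.54 times lower than the KO thymocyte mean (log2 difference -2.05, SE 0.17). WT leukaemias minus WT thymocytes gave a log2 difference of 0.15 (SE 0.14), within the spread of the arrays. With poly-A signal, 164 in KO stood against 1105 and 917 in WT leukaemias. Without it, 152 and 163 in KO stood against 1266 in WT.

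The second Ms4a6b probe set followed the first at a lower level. It gave 13.7, 13.4 and 11.9 in KO leukaemias, under background, against 48.7, 58.5 and 107 in WT leukaemias, and 39.9, 54.9 and 34.1 in KO thymocytes, against 58.8, 63.2 and 43.7 in WT thymocytes. Its log2 difference between KO and WT leukaemias was -1.54 (SE 0.23) and depended on the constant added before the logarithm, since 1 group lay at background. Over the 12 arrays, which fall into 4 groups, the log2 values of the 2 Ms4a6b probe sets had a Pearson correlation of 0.92.

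Ms4a4c, a close relative of Ms4a4b known from myeloid cells and interferon responses, gave 40.2, 42.1 and 32.1 in KO leukaemias, against 54.0, 70.0 and 69.5 in WT leukaemias. Thymocytes gave 31.8, 38.4 and 35.6 in KO and 52.4, 49.7 and 37.2 in WT. These levels, from 31.8 to 70.0, lay near the background level. The leukaemia groups did not overlap (log2 difference -0.57, SE 0.13), and the thymocyte groups did. The annotation of this Affymetrix probe set carries the suffix _x, used where some probes resemble other sequences, so signal from Ms4a4b or another relative cannot be told apart from that of Ms4a4c. The other Ms4a4c probe set lay at 4.96 to 13.4 and did not pass the filter.

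Ms4a6c, whose promoter shares the GAAANNGAA match and a 48-base run with Ms4a6b, varied far less between groups. Its brighter probe set gave 37.5, 34.0 and 31.9 in KO leukaemias and 40.0, 42.1 and 43.9 in WT leukaemias, followed by 49.6, 48.4 and 41.2 in KO thymocytes and 40.3, 51.2 and 41.2 in WT thymocytes. The log2 difference between leukaemia genotypes was -0.20 (SE 0.09), at levels near background. The second Ms4a6c probe set ran from 14.2 to 33.2, under background. Ms4a6d, a gene of myeloid cells, gave 21.3, 12.3 and 10.4 in KO leukaemias, against 24.7, 22.8 and 18.2 in WT leukaemias, by its brightest probe set. Its thymocyte values were 8.29, 7.93 and 9.74 in KO and 11.9, 9.89 and 6.97 in WT, also under background.

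Across the 11 probe sets, 7 had all KO leukaemia arrays below all WT leukaemia arrays, 0 had them above, and 4 overlapped. The 7 include the dimmer Ms4a4b and Ms4a4c probe sets, which were at background on all arrays. The share of all single-gene probe sets whose leukaemia genotypes do not overlap, in either direction, was 28.1%. Since the members were chosen with this comparison known, nothing is read from their count. As a description only, the median log2 difference of the 8 member probe sets that passed the filter was -0.45, and that of all 28372 tested probe sets -0.05. WT leukaemias lay above WT thymocytes without overlap for 5 of the 11 and below for 1, where 38.8% of all probe sets do not overlap. Those above include every Ms4a6d probe set, and the 1 below was the dimmer Ms4a6c probe set, all at background on every array. KO leukaemias lay below KO thymocytes for 6 and above for 1, where 37.0% do not overlap. Those below include the dimmer Ms4a4b and Ms4a6c probe sets, and the 1 above was a Ms4a6d probe set, all at background on every array. These comparisons share the leukaemia arrays with the first.

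**Figure D2:**
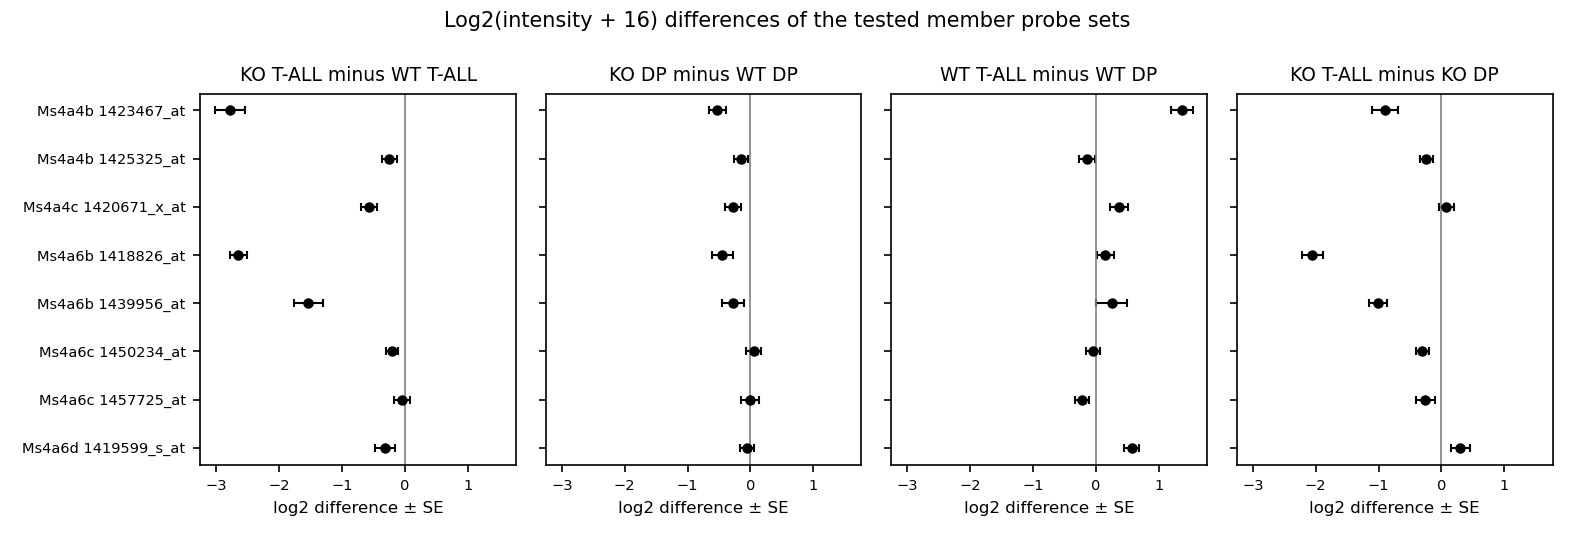
Log2 difference of log2(intensity + 16) with its SE (horizontal bars, 3 arrays per group) for the 8 member probe sets that passed the filter, in the 4 comparisons. The brighter probe sets of Ms4a4b and Ms4a6b lie furthest to the left in KO minus WT leukaemias, at -2.79 and -2.65, and lie at -0.53 and -0.45 in KO minus WT thymocytes.

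KO and WT thymocytes were tested, since this comparison shares no array with the leukaemia comparison named above. Earlier results of the whole data set were known too, so the test is not shown to be free of the choice. Ms4a4b was at 127 ± 20.9 in KO and 189 ± 17.3 in WT thymocytes (SD, n = 3 each), and Ms4a6b at 726 ± 172 and 977 ± 44.8. The log2 differences were -0.53 (SE 0.14) for Ms4a4b and -0.45 (SE 0.17) for Ms4a6b. All 3 KO arrays were below all 3 WT arrays for both genes. Neither passed the threshold after adjustment over 28372 probe sets with limma (adjusted p = 0.983 for both). The exact two-sided permutation test gave p = 0.1 for each, the smallest value that 3 against 3 arrays allow.

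Of the 8 tested member probe sets 0 passed in thymocytes, and 2 had an unadjusted limma p under 0.05. By the same limma test 3 of 28372 probe sets passed, 0.0106%, and 1252 had an unadjusted p under 0.05. KO thymocytes lay below WT without overlap for 3 of the 11 probe sets and above for 1, where 8.58% of all probe sets do not overlap in either direction; beside Ms4a4b and Ms4a6b these were 2 Ms4a6d probe sets at background. The adjusted p over all alternatives ranged from 0.287 to 1.00 for Ms4a4b and from 0.423 to 1.00 for Ms4a6b. Without WT DP 1, the array with raised myeloid and interferon genes, the differences were -0.47 (SE 0.16) and -0.44 (SE 0.21). KO DP arrays lack poly-A signal, and against the 1 WT DP array that lacks it too (193 for Ms4a4b, 1016 for Ms4a6b) all KO DP arrays were lower. Ms4a4c (log2 difference -0.28, SE 0.13) and Ms4a6c (0.05, SE 0.12) did not pass either.

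Ms4a4b and Ms4a6b did not keep 1 ratio across groups. Ms4a4b was highest in WT leukaemias alone, whereas Ms4a6b was about as high in WT thymocytes as in WT leukaemias. The Pearson correlation of their log2 values over the 12 arrays was 0.82, as a description of arrays that share groups, and KO leukaemias were at the low end of both. The other pairs of members ran from -0.25 for Ms4a6c with Ms4a6d to 0.78 for Ms4a4b with Ms4a4c.

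**Figure D3:**
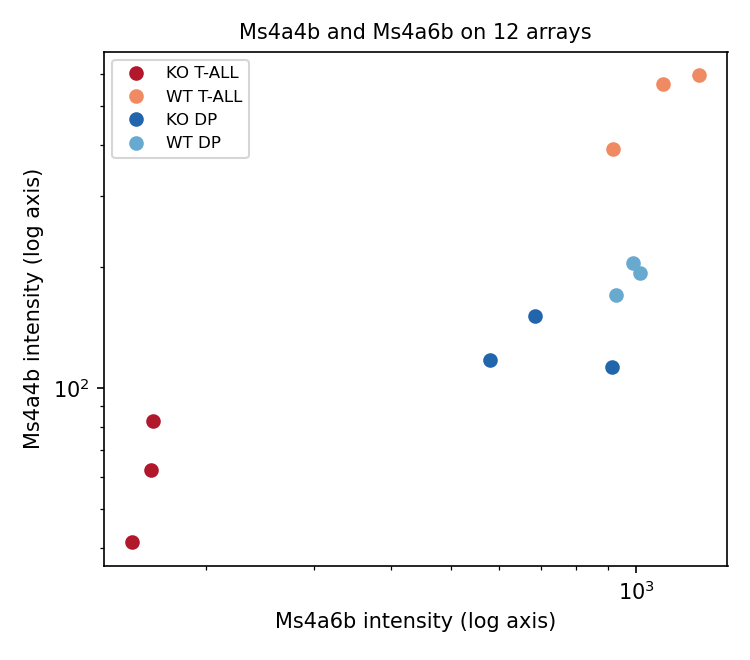
Ms4a6b (x) against Ms4a4b (y) intensity on log axes, 1 point for each of 12 arrays coloured by group. KO leukaemias sit at the lower left, and WT leukaemias share the Ms4a6b range of WT thymocytes but lie above them on Ms4a4b.

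The genes whose pattern over the 12 arrays was most like that of each member were taken by Pearson correlation of log2 values among 15408 genes. For Ms4a4b these were Taf9b (r = 0.98), which encodes a TFIID-type transcription factor subunit, the calcium-binding protein gene Tesc (0.98) and the phosphatase gene Cdc14b (0.97). Tesc averaged 34.2 in KO and 542 in WT leukaemias, and 84.9 in KO and 118 in WT thymocytes, the group order of Ms4a4b. For Ms4a6b they were the zinc transporter gene Slc30a4 (0.97), Fam126a (0.96) and the EDAR adaptor gene Edaradd (0.96). Slc30a4 averaged 30.0 in KO and 617 in WT leukaemias, and 575 in KO and 820 in WT thymocytes. For Ms4a4c they were Pls3 (0.92), Ppp2r5d (0.92) and Eif5a2 (0.91). Those of Ms4a6c were Sgcb (0.97), Bbs1 (0.90) and Tbc1d14 (0.90), and those of Ms4a6d Tsr2, Get4 and Tmem97 (0.97 each). The last 3 members lie near or under background, so their likeness rests on low values.

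The cluster from Ms4a10 to Ms4a3 was then read in gene order, from the GRCm38.p6 gene table. The array holds 12 other Ms4a genes with 15 probe sets, and 13 of these probe sets were at background on all arrays. They include Ms4a1 (5.00 to 27.8), Ms4a2 (8.53 to 17.4) and Ms4a3 (15.7 to 25.8), the defining genes of B cells, mast cells and developing granulocytes in this family. Ms4a7, a macrophage gene, passed the background level on 1 array (35.6). Ms4a15 was above it on all arrays, at 36.2 to 63.3, with 54.7 ± 6.66 in KO and 59.8 ± 1.90 in WT leukaemias (log2 difference -0.10, limma adjusted p = 0.615) and 53.1 ± 0.988 in KO and 49.4 ± 13.6 in WT thymocytes (log2 difference 0.10, limma adjusted p = 0.986).

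Besides the members, the gene inside the cluster with signal well above background was AW112010, annotated as a lncRNA and lying between Ms4a18 and Ms4a8a. It was picked out after its values were seen. It gave 49.7, 37.0 and 53.9 in KO leukaemias, against 314, 185 and 164 in WT leukaemias, and 223, 349 and 237 in KO thymocytes, against 292, 258 and 193 in WT thymocytes. AW112010 fell in KO leukaemias relative to WT leukaemias (log2 difference -1.87, SE 0.24, limma adjusted p = 0.00382) and relative to KO thymocytes (-2.17, SE 0.19, limma adjusted p = 0.000312). It did not pass in KO against WT thymocytes (0.11, SE 0.21, limma adjusted p = 0.990). Of the flanking genes on both sides, Ccdc86 (233 ± 47.3 in KO and 327 ± 36.9 in WT leukaemias, limma adjusted p = 0.117) and Mrpl16 (456 ± 122 and 784 ± 112, limma adjusted p = 0.0606) did not pass between leukaemia genotypes.

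**Figure D4:**
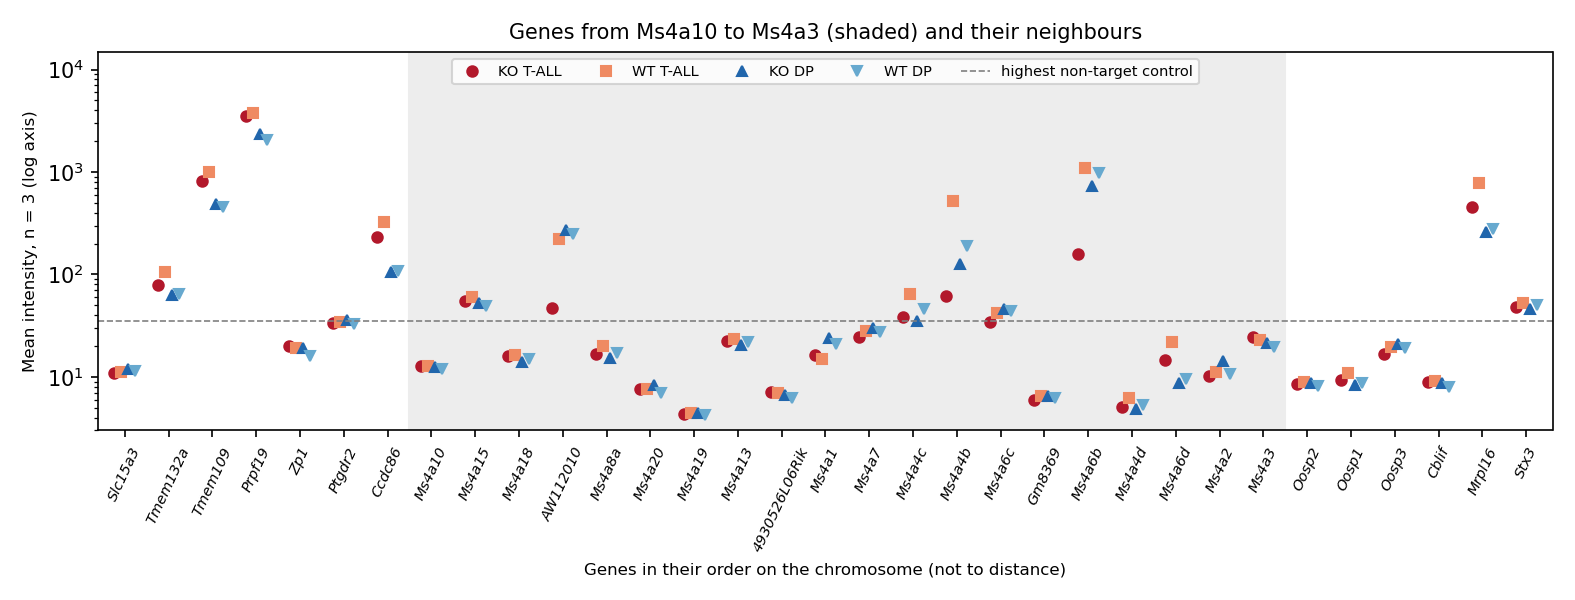
Mean intensity (log axis, n = 3 arrays) in the 4 groups for the genes of the Ms4a cluster on the array (shaded) and their neighbours, in chromosome order without distances; the dashed line is 35.3. Inside the shading only AW112010, Ms4a15, Ms4a4c, Ms4a4b, Ms4a6c and Ms4a6b have a group mean above the line, and KO leukaemias are lowest for AW112010, Ms4a4b, Ms4a6c and Ms4a6b.

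Tmem176a and Tmem176b encode CD20-related membrane proteins outside the cluster, and both rose in KO leukaemias. Tmem176a gave 918, 1101 and 1219 in KO leukaemias, against 24.2, 20.3 and 29.2 in WT leukaemias, where it was at background by this probe set (log2 difference 4.75, SE 0.14, limma adjusted p = 1.32e-05). Its other probe sets averaged 712 and 602 in KO leukaemias, against 53.5 and 90.0 in WT leukaemias. Tmem176b gave 2739, 2089 and 3082 in KO leukaemias, against 122, 71.7 and 89.3 in WT leukaemias (log2 difference 4.60, SE 0.21, limma adjusted p = 5.23e-05). The groups were far apart for both genes. Thymocytes lay between them, with Tmem176b at 258 ± 38.7 in KO and 224 ± 55.4 in WT, and Tmem176b fell in WT leukaemias relative to WT thymocytes (log2 difference -1.12, limma adjusted p = 0.0118). Tmem176a did so only by the probe set at background in WT leukaemias (-1.21, limma adjusted p = 0.00628), and its other probe sets did not pass (-0.38 and -0.30, limma adjusted p = 0.0936 and 0.218). Between leukaemia genotypes 12.9% of all tested probe sets passed, 2167 higher and 1493 lower in KO. That split was 2015 higher and 2293 lower with arrays centred on their 75th percentile, and 6026 passed when the replicate number was a block.

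**Figure D5:**
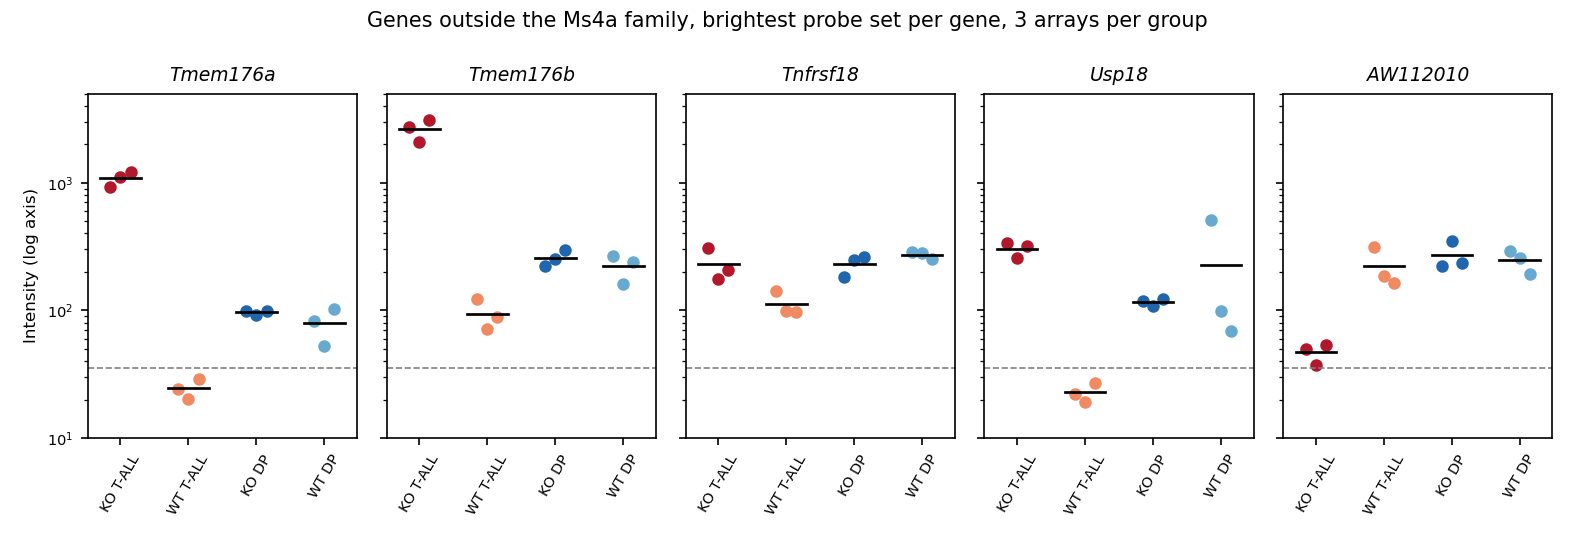
Intensity (log axis) of 5 genes outside the family on every array, with groups, mean lines and dashed background line drawn as for the members. Tmem176a, Tmem176b, Tnfrsf18 and Usp18 average higher in KO than in WT leukaemias, whereas AW112010 averages lower.

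GITR, the receptor that Ms4a4b partners, is encoded by Tnfrsf18. It gave 310, 175 and 207 in KO leukaemias, against 141, 98.6 and 97.2 in WT leukaemias, and 181, 246 and 263 in KO thymocytes, against 286, 283 and 251 in WT thymocytes. Tnfrsf18 thus rose in KO leukaemias (log2 difference 0.92, SE 0.23, limma adjusted p = 0.0458), where Ms4a4b was at its lowest. The call was lost in 7 alternatives, among them each WT T-ALL array left out (highest adjusted p = 0.167 without WT T-ALL replicate 2). Of 7 measured GITR and costimulation genes 2 were higher and 0 lower in KO leukaemias, where 12.9% of all tested probe sets passed. The second was Tnfrsf9, which encodes 4-1BB, at 169 ± 32.1 in KO and 70.8 ± 9.85 in WT leukaemias (log2 difference 1.08, limma adjusted p = 0.00668). With the replicate number as a block 4 of the 7 were higher, in a fit where 3130 of 28372 tested probe sets were higher and 2896 lower. In WT leukaemias against WT thymocytes 0 were higher and 4 lower, Tnfrsf18 among them (112 ± 25 and 273 ± 19.6, log2 difference -1.19, limma adjusted p = 0.00179), with 29.7% of all probe sets passing. In KO leukaemias against KO thymocytes, where 27.3% of all probe sets passed, Tnfrsf18 was at 231 ± 70.3 and 230 ± 43.3.

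Of 16 measured interferon-stimulated genes, 8 were higher, 0 lower and 8 not passing in KO against WT leukaemias, where 12.9% of all tested probe sets passed, with a median log2 difference of 1.10. Stat2 (log2 difference -0.10), Ifit3 (-0.06) and Bst2 (-0.24) were among those that did not pass. Usp18, which removes ISG15 from proteins, gave 337, 258 and 318 in KO leukaemias, against 22.1, 19.0 and 27.2 in WT leukaemias (log2 difference 3.05, limma adjusted p = 4.96e-05). Trim30a (log2 difference 2.55), Oasl2 (2.39) and the transcription factor gene Irf9 (1.45) also rose, with limma adjusted p of 0.000182, 0.000333 and 0.000342. Usp18 and Oasl2 were at background in WT leukaemias, so the size of their differences depends on the added constant. In WT leukaemias against WT thymocytes, where 29.7% of all probe sets passed, 0 were higher and 7 lower, a comparison that includes the array WT DP 1, and 2 were higher and 7 lower without it. In KO leukaemias against KO thymocytes, where 27.3% of all probe sets passed, 7 were higher and 1 lower. In KO against WT thymocytes 0 of 16 passed. The part of interferon signalling in the members' levels was not tested.

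Ms4a4b and Ms4a6b are known to be high in mature naive T cells. Of 14 measured genes of such cells, 2 were higher, 0 lower and 12 not passing in KO against WT leukaemias. Of all tested probe sets 12.9% passed there. With the replicate block 6 of the 14 were higher and 1 lower, in a fit where 3130 of 28372 tested probe sets were higher and 2896 lower. Il7r, the IL-7 receptor gene, was at 166 ± 78.6 in KO and 20.8 ± 3.07 in WT leukaemias (log2 difference 2.19, limma adjusted p = 0.00843), and Igfbp4 at 5593 ± 436 and 648 ± 91.6 (log2 difference 3.09, limma adjusted p = 3.78e-05). The largest differences the other way among the 14, which did not pass, were those of S1pr1 (66.5 ± 11.6 in KO and 184 ± 92.9 in WT, log2 difference -1.19, limma adjusted p = 0.0559) and Klf2 (654 ± 429 and 1031 ± 127, log2 difference -0.82, limma adjusted p = 0.268). Of 11 thymocyte and T-cell markers 5 were lower, 1 higher and 5 not passing in KO leukaemias. Those that fell include Thy1 (1186 ± 294 in KO and 6100 ± 173 in WT leukaemias, log2 difference -2.37, limma adjusted p = 0.000343) and the pre-T-cell-receptor gene Ptcra (31.6 ± 7.99 and 1583 ± 183, log2 difference -5.08, limma adjusted p = 1.32e-05). The one that rose was Dntt, the terminal transferase gene (4003 ± 908 and 1350 ± 456, log2 difference 1.59, limma adjusted p = 0.0174), and the CD3 chain gene Cd3e did not pass (2582 ± 404 and 2177 ± 235, limma adjusted p = 0.375).

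Since Ms4a4c, Ms4a6c and Ms4a6d are myeloid genes, markers of other blood cells were set beside them. Of 16 monocyte and macrophage markers 0 were higher and 2 lower in KO leukaemias, about the share of all tested probe sets that passed, 12.9%. With the replicate block 3 were lower, in a fit where 3130 of 28372 tested probe sets were higher and 2896 lower. The 2 lower in the main fit were Lyz1 (24.8 ± 13.6 in KO and 68.6 ± 15.4 in WT, limma adjusted p = 0.0347) and Lyz2 (31.3 ± 5.26 and 55.4 ± 6.78, limma adjusted p = 0.026). The Lyz1 probe set carries the suffix _x, so signal from a similar sequence cannot be told apart from that of Lyz1. The summed level of the 16 was 448 to 610 in KO and 662 to 722 in WT leukaemias, and 555 to 632 in KO and 611 to 1413 in WT thymocytes. Adgre1, Cd14, Cx3cr1, Cybb, Fcgr3 and Itgam were at background on all arrays, whereas Csf1r, the receptor of macrophage growth factor (54.5 to 86.0), and Ctss (38.6 to 220) were above it on all 12. In all, 3 of the 16 were above background on every KO leukaemia array and 7 on every WT leukaemia array, and 5 and 6 on every KO and WT thymocyte array. Of 9 granulocyte markers 0 passed between leukaemia genotypes. With the replicate block, where 2896 of 28372 tested probe sets were lower, 5 of the 9 were lower in KO. The sums of the 9 were 291 to 947 in KO and 1164 to 2056 in WT leukaemias, against 227 to 529 in KO and 210 to 476 in WT thymocytes. The part of these cells in the members' values was not tested.

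For the counts that follow, 12.9% of all tested probe sets passed between leukaemia genotypes in the main fit. With the replicate block 3130 of 28372 were higher in KO and 2896 lower. Of 8 tested markers of mast cells or basophils 4 were higher in KO leukaemias and 0 lower, and 5 were higher with the replicate block. The carboxypeptidase gene Cpa3 was at 7622 ± 622 in KO and 20.7 ± 3.16 in WT leukaemias (log2 difference 7.70, limma adjusted p = 1.49e-06), and Kit at 801 ± 396 and 29.8 ± 7.01 (log2 difference 4.05, limma adjusted p = 0.000613). Cma1, Fcer1a, Mcpt4, Tpsab1 and Tpsb2 were at background in KO leukaemias, as was Ms4a2 of the same receptor as Fcer1a. Of 8 B cell markers 2 were higher in KO leukaemias, Cd22 (188 ± 15.4 in KO and 87.2 ± 20.4 in WT) and Cd79b (47.0 ± 6.19 and 24.4 ± 5.88), while Pax5, Cd79a and Ebf1 were at background, as was Ms4a1. In thymocytes Cd79b was higher than in either leukaemia group, at 151 ± 11.3 in KO and 160 ± 20.9 in WT. Cd22 was at 79.0 ± 10.8 in KO and 73.2 ± 17.5 in WT thymocytes. Of 5 tested NK cell markers 2 were higher in KO leukaemias, Gzma (5287 ± 1930 in KO and 1174 ± 145 in WT) and Il2rb (169 ± 6.26 and 84.4 ± 5.04), with Ncr1 and Klra8 at background.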

How the data were processed

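Values deposited by the authors are linear intensities per probe set for 12 arrays, 3 per group, labelled from 7 µg of total RNA per the labels. How they were summarised and normalised is not given in the sources used here. They were used as log2(intensity + 16), without normalising again. Of 45101 probe sets 34945 were annotated to 1 gene, 932 to several and 9160 to none; only the first were used, and no detection calls were used. A probe set entered the tests if 3 or more arrays placed it over their 25th percentile, which 28372 did. The test was limma's lmFit with eBayes (limma 3.58.1, R 4.3.3), with a separate fit for each pair of groups, at a Benjamini-Hochberg adjusted p under 0.05. Fits were tested on simulated data. For other genes the probe set with the highest mean represents a gene. With 3 against 3 arrays an exact test cannot go below p = 0.1.

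The members and lists were chosen with earlier results of these data known. Genes were picked by rule: all members, other Ms4a and Tmem176 genes above background, Mbd2, up to 4 passing list genes with the smallest p per comparison (or 2 where fewer pass), and the 3 genes most correlated with each member. Not every list gene that the rule gave is printed. Cd4, Cd8b1, Hdc and Gata2 in KO against WT leukaemias are among those left out. AW112010, the flanking Ccdc86 and Mrpl16, and S1pr1, Klf2, Dntt, Cd3e, Stat2, Ifit3, Bst2, Csf1r, Ctss and the other monocyte markers named without a test were named after their values were seen, as was Tnfrsf18 in KO leukaemias against KO thymocytes. The thymocyte levels of Cd22 and Cd79b were also added after their values were seen. Promoter windows come from RefSeq (GRCm38.p6).

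The labels number the arrays 1 to 3 per group without saying what a number marks or whether arrays are separate mice, so p-values measure the spread between these samples. Deviations from group means correlated between equal numbers at 0.42, 0.22 and 0.59 for KO and WT T-ALL. For WT T-ALL and WT DP they correlated at 0.42, 0.45 and 0.59. Equal numbers also mostly share the poly-A set. The main fits hold no block in any comparison, so their SE, adjusted p and calls are unpaired. The replicate block was fitted only as an alternative. In the other comparisons equal numbers did not correlate in this way. Alternatives were other added constants, filters and scalings, 1 probe set per gene, trend with robust eBayes, all 12 arrays in a fit, the replicate or poly-A set as a block, and leaving out each array.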

Additional observations from a re-analysis of the deposited data

Results flagged for a closer look

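For the 7 probe sets listed here every KO array lay on one side of the WT mean in leukaemias and on the other side in thymocytes. Other genes named in the text met this rule too, so the list is not complete. Ptcra gave 40.7, 25.7 and 28.5 in KO leukaemias, against 1737, 1633 and 1380 in WT leukaemias. Its thymocyte values were 429, 445 and 519 in KO and 421, 333 and 389 in WT. Cd3e, Il2rb and Pax5 also met the rule. The difference between the effects was not tested in any of them. The value is the log2 difference KO minus WT in T-ALL less that in DP. Usp18 gave 3.41 (3.05 in T-ALL and -0.37 in DP), Trim30a 2.88 (2.55 and -0.33), Il7r 2.69 (2.19 and -0.50) and Tnfrsf18 1.17 (0.92 and -0.25). Without WT DP 1, a choice made after the data were seen, the difference in DP was 0.44 for Usp18, which turned its direction, -0.20 for Trim30a, -0.19 for Il7r and -0.21 for Tnfrsf18, and KO arrays no longer all lay on opposite sides for Usp18 and Trim30a. Within the family this held for Ms4a15 at -0.20 (-0.10 and 0.10) and the probe sets of Ms4a2 at -0.24 (-0.05 and 0.18) and -0.22 (-0.07 and 0.14), which were at background on all arrays. Without WT DP 1 the difference of Ms4a15 in DP turned to -0.05, and the opposite sides were lost for it and for the first of the Ms4a2 probe sets. With all arrays, opposite sides were found for none of the 11 probe sets of the 5 members. Single outlying arrays were not searched for gene by gene, and WT DP 1 was seen to stand apart in its summed lists.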

How the results depend on the processing

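Over the 17 alternatives the log2 differences between leukaemia genotypes kept their sign and ran from -3.07 to -2.20 for Ms4a4b and from -2.77 to -2.36 for Ms4a6b. With an added constant of 64 these were -2.20 and -2.36, and that of Ms4a6b in KO T-ALL against KO DP -1.80, since a larger constant compresses low values. In KO DP against WT DP neither member passed in any alternative; 5 probe sets passed with trend and robust eBayes, 14 with all 12 arrays in the fit, 0 with the replicate block or the poly-A set block, and 0 to 2 without 1 array. The numbers do not pair the arrays there (same-number r of -0.51, 0.10 and -0.48) or in KO T-ALL against KO DP (-0.39, 0.11 and -0.46). The replicate block raised the calls of KO T-ALL against WT T-ALL to 6026, and leaving out 1 array gave 1863 (without WT T-ALL replicate 2) to 3368, with 2337 without WT T-ALL replicate 1; the cause was not tested. With 1 probe set per gene, which tests fewer probe sets, 5242 passed in WT T-ALL against WT DP and 4565 in KO T-ALL against KO DP. AW112010 kept its call in KO T-ALL against WT T-ALL in all 17 (adjusted p 0.000288 to 0.0194), tried after its values were seen. Tnfrsf18 lost its call in 7 of 17. Mbd2 in KO DP against WT DP lost its call with the replicate block (adjusted p = 0.257, log2 difference -3.70). Between leukaemia genotypes that block gave 11 higher interferon-stimulated genes, 3 lower monocyte and macrophage markers, 5 higher mast cell markers and 6 lower T-cell markers. Over all 28372 tested probe sets the same block gave 3130 higher and 2896 lower. Levels of Ms4a4c and Ms4a6c near background and of Ms4a6d under it limit what can be said of their differences, and 3 arrays per group limit the precision of all.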
